A study of Mus musculus with 10 samples.

Results

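The motifs described here are the DNA words assigned to zinc finger transcription factors whose names begin with ZNF, ZFP, ZBTB, ZSCAN or ZKSCAN, with ZNF384 left out. They were chosen by name alone, from a table of footprint scores for DNA-binding motifs, and they are 98 of its 879 motifs. Each motif stands for all the genome sites that match it, 3330 to 83898 sites per motif and 2911035 in all, and the sites of different motifs can overlap. The accessible chromatin came from vascular smooth muscle cells grown from the aortic media of male mice aged 8 weeks. One genotype was wild type, and the other carried Myh11-Cre-ERT2, a tamoxifen-dependent Cre made under a smooth muscle myosin promoter, with overexpression of Adamts7 in vascular smooth muscle cells. Adamts7 encodes a secreted protease of the extracellular matrix. No Cre driver is named for the wild-type mice and no tamoxifen schedule is stated, so driver, treatment and overexpression cannot be told apart. ATAC-seq, in which a transposase cuts open chromatin, was made from 50000 cells of 2 mice per genotype, and RNA was sequenced from 3 mice per genotype.

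C2H2 zinc finger proteins read DNA with strings of zinc-stabilised fingers, and they form the most numerous class of transcription factors in mammals. KRAB zinc finger proteins recruit Trim28 (KAP1), which brings the histone methyltransferase Setdb1 and silences transposable elements. BTB zinc finger proteins pair through their BTB domain and often recruit the NCoR and SMRT corepressors and histone deacetylases, while the SCAN domain serves to join SCAN proteins to each other. A footprint is the dip in transposase cuts over a bound site in open chromatin. The footprint score rises with the depth of that dip and with the openness of its flanks, and a site above a set score is called bound.

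The table holds no coordinates of single sites, so the sites themselves cannot be shown. Of the 98 motifs, 8 share a deposited motif cluster with another motif, and 4 of these fall in clusters made up mostly of ETS factors. The word CCGGAA was chosen here to stand for ETS sites. For 57 of the 98 motifs a single mouse gene of the factor was taken, and the promoters of those genes were searched for that word on both strands. RefSeq windows from 250 bases before to 50 after a gene start (GRCm38.p6) were at hand for 46 of the 57 genes. The word occurred in 21 of the 46 genes (45.7%), against 16.7% of all 27025 genes with such a window. By window the shares were 34.8% and 14.9%. The zinc finger windows also held more G and C (median 58.8% against 52.7%) and more CpG (18 against 7 per window), and how much this adds to the word count was not tested. The word was present for 7 of 13 BTB genes, 4 of 5 SCAN genes, 6 of 14 KRAB genes and 4 of 14 other genes. The promoters of Zbtb11, Zbtb33 and Zscan29 show it, because their motifs return in the results below as an ETS-cluster motif, as the motif with the highest score and as one of those marked lower. They were picked among genes that hold the word. It was not found in the windows of Zbtb2 and Zbtb7a, the other genes of ETS-cluster motifs, or of Zbtb14, Zbtb7b and Zfp692, whose motifs are also marked lower. The 3 sequences are printed 5′ to 3′ on the strand of the gene, with CCGGAA, or TTCCGG where it lies on the other strand, in capitals. Zbtb11 is at chr16:55973554-55973853 on the plus strand, Zbtb33 at chrX:38189543-38189842 on the plus strand and Zscan29 at chr2:121171076-121171375 on the minus strand.
Zbtb11: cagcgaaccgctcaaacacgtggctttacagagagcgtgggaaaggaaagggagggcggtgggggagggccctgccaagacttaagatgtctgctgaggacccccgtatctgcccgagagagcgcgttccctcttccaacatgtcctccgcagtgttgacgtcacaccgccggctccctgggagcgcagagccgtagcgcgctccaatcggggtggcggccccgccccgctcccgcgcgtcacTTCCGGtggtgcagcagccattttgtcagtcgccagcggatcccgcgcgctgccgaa
Zbtb33: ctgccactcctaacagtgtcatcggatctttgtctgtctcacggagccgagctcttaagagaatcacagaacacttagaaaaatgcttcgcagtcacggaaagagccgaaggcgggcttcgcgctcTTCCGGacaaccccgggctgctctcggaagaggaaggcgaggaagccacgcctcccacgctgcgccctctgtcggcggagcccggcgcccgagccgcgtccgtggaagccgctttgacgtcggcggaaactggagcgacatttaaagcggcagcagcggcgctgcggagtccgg
Zscan29: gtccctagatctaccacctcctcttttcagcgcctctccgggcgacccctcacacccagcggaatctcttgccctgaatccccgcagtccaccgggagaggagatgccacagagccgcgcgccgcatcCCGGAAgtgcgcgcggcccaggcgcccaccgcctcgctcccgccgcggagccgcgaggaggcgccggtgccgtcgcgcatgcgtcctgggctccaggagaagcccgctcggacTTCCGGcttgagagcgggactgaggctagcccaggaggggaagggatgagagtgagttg
Zbtb11 and Zbtb33 have 1 match each and Zscan29 has 2. A match is a description of letters and says nothing about whether a factor sits there.

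Each genotype has 1 pooled value per motif, because the deposited scores merge the 2 mice. There is thus no spread between mice, and differences in footprints are given without an SD or a test. Markers of smooth muscle and of other cell types were read from the RNA libraries. All 7 smooth muscle markers, among them Acta2 and Myh11, were present, and their summed level was 2491 to 2630 TPM (transcript abundance per unit of length and of library total) in wild-type and 2920 to 4440 TPM in overexpression libraries. Of the 7, 6 were higher at an unadjusted p under 0.05, and Smtn averaged 143 and 132 TPM. Macrophage markers were present too, 434 to 656 TPM summed over 10 genes in wild type and 1094 to 3527 TPM in overexpression, with 10 of 10 higher at that p, where 10.6% of all genes were. Endothelial markers summed over 9 genes ran from 4008 to 4500 TPM and from 2062 to 3382 TPM, with 6 of 9 lower, where 8.94% of all genes were. In wild type the endothelial sum was thus above the smooth muscle sum, and in overexpression the ranges overlapped. Wild-type means ran from 5.49 TPM (Cldn5) to 2046 TPM (Emcn) for endothelial markers. For smooth muscle markers they ran from 29.8 TPM (Lmod1) to 1249 TPM (Acta2). No marker was at 0 in every library, and the part of these cell types in the results below was not tested. Adamts7 itself had 6.08, 6.18 and 8.20 TPM in wild type against 98.7, 79.1 and 75.8 TPM with overexpression.

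The zinc finger motifs had a median wild-type footprint score of 0.234, against 0.207 over all 879 motifs. They spanned nearly the whole scale, from 0.125 for ZNF354A to 0.469 for ZBTB33, and the middle 50% lay between 0.204 and 0.268. The median share of sites called bound was 10.8% in wild type and 10.5% in overexpression cultures, against 8.14% and 8.49% over all motifs. Counted over all their sites, 368352 were called bound in wild type and 341255 in overexpression, or 12.7% and 11.7%. The corresponding shares over all motifs were 11.3% and 11.4%. Score and bound share rank the motifs almost identically (Pearson's r 0.991 and Spearman's rho 0.992 over the 98 motifs), since a bound site is one with a high score. The number of sites had no such relation with the score (r -0.019, rho 0.105). These correlations are descriptions across motifs, which share the same 2 pools of libraries.

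Of the 14 BTB motifs, several stood near the top of the whole table, and as a class they had the highest median score, 0.256 in wild type. ZBTB33 (Kaiso), which binds methylated CpG words and a related unmethylated site, had the fewest sites of any zinc finger motif, 3330, and a wild-type score of 0.469, rank 3 of the 879 motifs. Of its sites 40.8% were called bound in wild type (95% Wilson interval 39.2% to 42.5%) and 35.9% in overexpression (34.3% to 37.5%). Here as elsewhere the interval covers counting error only. ZBTB14, a factor of GC-rich promoters, went from 36.9% to 27.8% bound of 10893 sites, with mean scores of 0.429 and 0.376. Zbtb2, a repressor named in the table in mouse spelling, had scores of 0.403 and 0.395 and bound shares of 31.6% and 30.6%. The members of the ZBTB7 family differed in level and in how far the mean score moved. ZBTB7A, the broadly expressed LRF repressor, held 0.336 in both genotypes, whereas ZBTB7B (ThPOK, the CD4 T-cell fate factor) went from 0.260 to 0.232 and ZBTB7C from 0.291 to 0.259. The ZBTB7A motif lies in the Erg cluster described below, while those of ZBTB7B and ZBTB7C each stand alone in a cluster. At the bottom stood ZBTB17 (Miz-1, a partner of MYC), with 3502 sites and scores of 0.164 and 0.183.

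**Figure D1:**
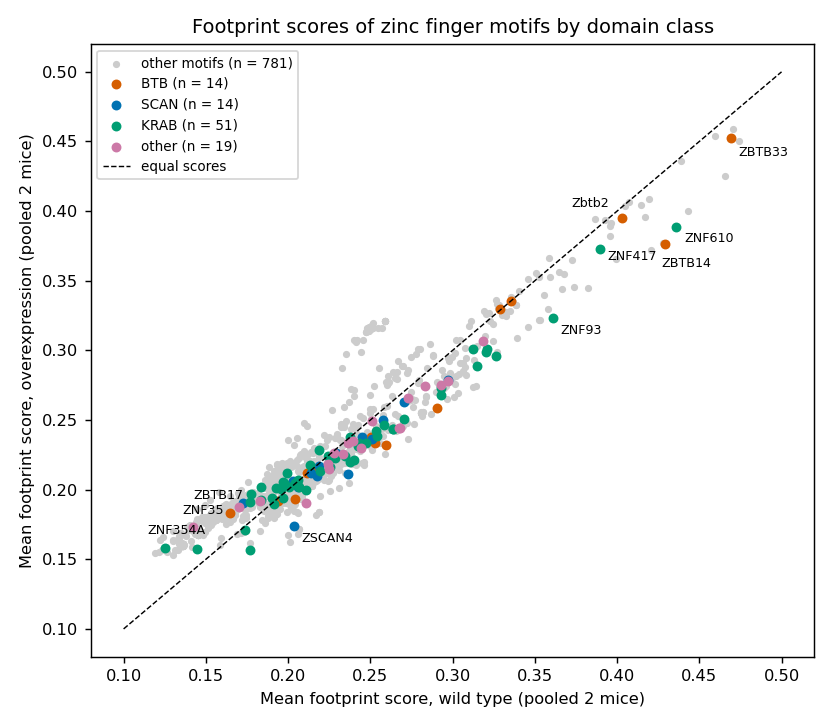
Mean footprint score in wild type (x axis) against overexpression (y axis), 1 point per motif, with the 98 zinc finger motifs coloured by domain class and the 781 other motifs in grey. Points below the dashed line of equal scores had the lower score in overexpression; the zinc finger motifs at the upper end, ZNF610, ZBTB14 and ZNF93 among them, lie below it, and ZNF354A and ZNF35 at the lower end lie above it.

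Each motif was put in a single domain class. ZKSCAN1, ZKSCAN3 and ZKSCAN5, named for a KRAB and a SCAN domain, were counted as SCAN. The KRAB motifs and genes counted here are thus not every protein with a KRAB domain. The 14 SCAN motifs lay in a narrow middle range, with a median wild-type score of 0.224 and an SD over motifs of 0.032 against 0.094 for the BTB motifs. ZNF213 had the highest of them, 0.297 in wild type and 0.279 in overexpression. ZNF263, whose motif shares a cluster with that of SP5, had 0.270 and 0.263. ZSCAN4, known from cleavage-stage embryos and a rare state of embryonic stem cells, had 54455 sites but a low bound share, 5.68% in wild type and 5.02% in overexpression. ZNF24 had the lowest SCAN score, 0.172, with 5.41% of sites bound in wild type and 6.76% in overexpression. ZNF213 and ZNF24 were picked here as the ends of the class, after their values were seen.

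The 51 KRAB motifs also had a median wild-type score of 0.224, but they held both the second highest and the lowest score of the set. ZNF610 had 23079 sites, of which 38.1% were called bound in wild type and 28.7% in overexpression. ZNF417 followed, with 6622 sites and 32.2% and 28.0%, and ZNF93, which silences LINE retrotransposons in primates, with 38510 sites and 28.3% and 21.8%. ZFP57, which protects the methylation of imprinted regions, had only 4313 sites and scores of 0.315 and 0.289. Most KRAB motifs belong to human proteins for which no mouse gene could be named, 34 of 51. Those 34 had a median wild-type score of 0.231 and the 17 with a mouse gene 0.211, the former being the higher. At the low end came ZNF211 (3.52% and 3.68% bound), ZNF558 (2.95% and 3.67%) and ZNF354A (2.65% and 3.70%).

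The 19 remaining motifs, of proteins with none of these 3 domains, had a median of 0.240. ZNF281 and ZNF148, both binders of GC-rich DNA, had the most sites of the set, 83898 and 75036, with wild-type bound shares of 18.6% and 23.2%. Those shares were 16.6% and 20.7% in overexpression. ZNF530, a KRAB motif, and ZNF768 had the next most sites, 59247 and 63309, with 14.4% and 9.61% bound in wild type. ZNF143 and ZNF76, related activators of housekeeping promoters, form a motif cluster of their own, with wild-type scores of 0.240 and 0.273 and overexpression scores of 0.235 and 0.266. ZNF35 was the lowest, at 0.142 in wild type and 0.173 in overexpression.

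**Figure D2:**
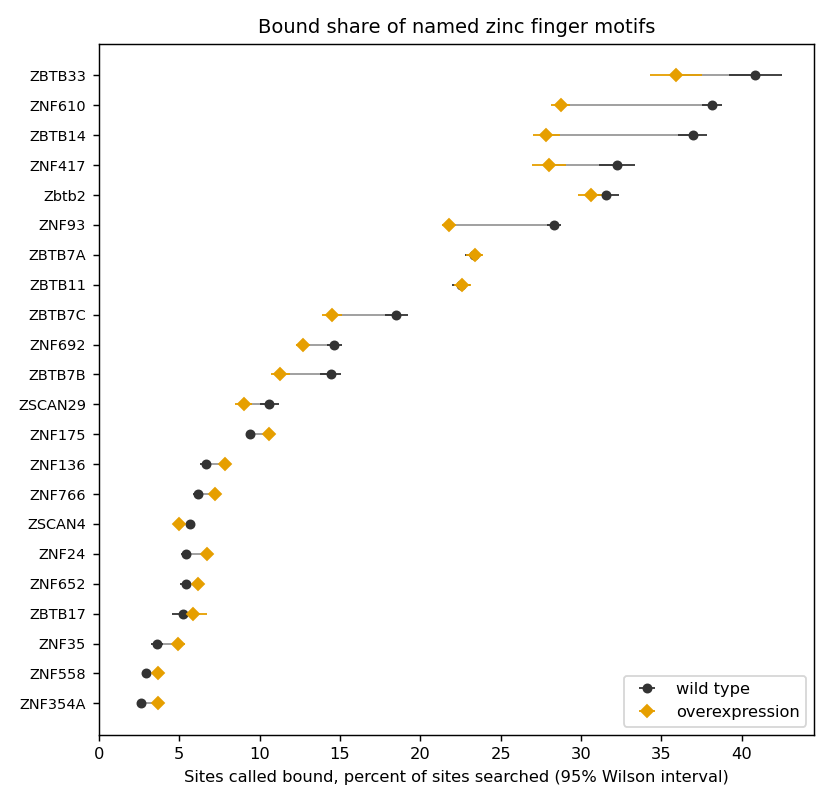
Percent of sites called bound for named zinc finger motifs in wild type (circles) and overexpression (diamonds), with 95% Wilson intervals for counting error. ZBTB14, ZNF610 and ZNF93 show the widest gaps, 36.9% to 27.8%, 38.1% to 28.7% and 28.3% to 21.8%, while ZBTB11 and ZBTB7A overlap.

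Zinc finger footprints were more often lower than higher in the overexpression cultures, while all motifs together leaned the other way. The mean score was lower in overexpression for 71 of the 98 motifs (72.4%), where 43.6% of all 879 motifs were lower. Fewer sites were called bound for 59 motifs (60.2%), against 37.1% of all motifs, and more sites for 39. The authors' deposited table also gives a change score per motif, turned here so that a positive value is higher in overexpression. Its unit is unknown here, but over the 98 motifs it ran nearly parallel to the log2 ratio of both mean scores (Pearson's r 0.992). By that change score in the authors' deposited table, 60 motifs were lower and 38 higher, or 61.2% lower. The same score put 38.1% of all motifs lower and 61.9% higher. Its median was -0.055 over the zinc finger motifs, 0.107 over all motifs and 0.135 over the other 781 in the authors' deposited table. The middle 50% of the zinc finger motifs lay between -0.132 and 0.048, and the ends were -0.332 and 0.570. For 11 of the 98 motifs the change score was above 0 although the mean score was lower in overexpression. These were Zbtb2, ZBTB7A, ZNF740, ZFP42, ZNF341, ZSCAN16, ZBTB12, ZNF75D, ZBTB32, ZNF157 and ZNF8, each with mean scores less than 0.01 apart. Mean score and number of bound sites went in opposite directions for 16 motifs, in 14 of them with a lower score and more bound sites.

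The direction followed the level in wild type. Across the 98 motifs the change score had a Pearson correlation of -0.592 and a rank correlation (Spearman) of -0.660 with the level in wild type, as a description, since the wild-type score enters both. Over all 879 motifs the values were -0.551 and -0.651. The spread of scores over the zinc finger motifs was also smaller in overexpression, an SD of 0.053 against 0.063 in wild type. All motifs were therefore split into 5 bands of equal size by wild-type score, and zinc finger motifs were read beside the other motifs of their own band. In the lowest band, up to 0.168, 0 of 4 zinc finger motifs and 0 of 172 other motifs were lower in overexpression. The second band had 1 of 14 (7.14%) against 24 of 162 (14.8%), and the third 10 of 23 (43.5%) against 79 of 152 (52.0%). In the fourth band, from 0.221 to 0.260, 24 of 29 zinc finger motifs (82.8%) were lower, against 78 of 147 others (53.1%). In the highest band it was 25 of 28 (89.3%) against 94 of 148 (63.5%), with median change scores of -0.147 and -0.056. The zinc finger motifs thus had the larger share of lower motifs in the upper bands and the smaller share in the 2 bands below those. Motifs within a band share sites and libraries, so no test of these differences was made.

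**Figure D3:**
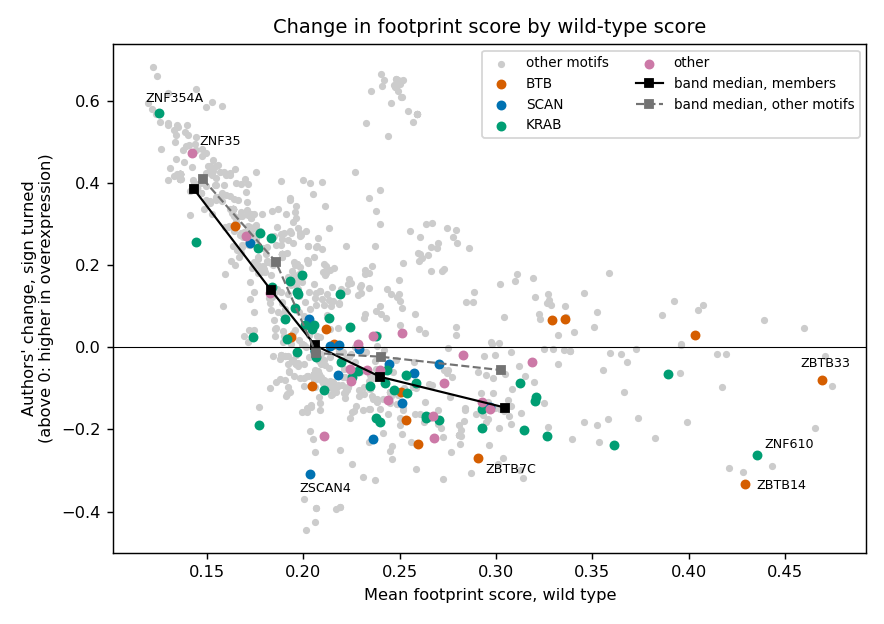
Change score of the authors' deposited table, sign turned (y axis, above 0 is higher in overexpression), against the wild-type footprint score (x axis), with zinc finger motifs coloured by domain class, other motifs in grey and squares for the medians of 5 bands of wild-type score. The medians fall from 0.384 for zinc finger motifs and 0.409 for the others in the lowest band to -0.147 and -0.056 in the highest.

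By domain class, the SCAN motifs were lower in overexpression for 10 of 14, the KRAB motifs for 30 of 51, the other motifs for 13 of 19 and the BTB motifs for 7 of 14, by the change score. By mean score the counts were 12 of 14, 32 of 51, 16 of 19 and 11 of 14 in the same order, so the place of the BTB motifs among the classes depends on the measure. The class medians of the change score were -0.041, -0.056, -0.056 and -0.036. With a mouse gene, 36 of 57 motifs were lower by the change score, 44 by mean score and 37 by bound sites. Without one, it was 24, 27 and 22 of 41. Those 41 include ZSCAN4, for which no single mouse gene was taken, although mouse has the genes Zscan4a to Zscan4f. The median change scores were -0.054 and -0.056, and none of these differences between classes was tested. The 95% intervals of the bound share did not overlap between genotypes for 55 motifs, or 56.1%, where this was so for 50.3% of all motifs. They were lower in overexpression for 41 (41.8%, against 19.6% of all motifs) and higher for 14 (14.3%, against 30.7%). The intervals cover counting error only, and the same sites were scored in both genotypes, so these counts are no test of a difference.

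The authors' deposited table marks some motifs, and the rule behind the mark is not stated. Of the zinc finger motifs 9 were marked (9.18%), against 10.9% of all motifs. Among them 8 were lower in overexpression (8.16%), where 5.01% of all motifs were marked as lower, and 1 was higher (1.02%), where 5.92% were marked as higher. Those 8 had the lowest change scores of the zinc finger motifs and the 1 had the highest. The mark is thus not separate from that score. The p-values of that table do not separate the motifs, since all 98 had p under 0.05, as did 876 of the 879. ZBTB14 had the lowest change score of the set in the authors' deposited table, -0.332, at rank 871 of the 879 motifs from higher to lower. ZSCAN4 came next with -0.307 in the authors' deposited table, on mean scores of 0.204 and 0.174. Among the marked BTB motifs, ZBTB7C had -0.270 and ZBTB7B -0.235 in the authors' deposited table, the latter with 14.4% of sites bound in wild type and 11.3% in overexpression. The KRAB motifs ZNF610 and ZNF93 had -0.262 and -0.239 in the authors' deposited table. ZSCAN29 and ZNF692 completed the lower motifs with -0.224 and -0.221 in the authors' deposited table, on wild-type bound shares of 10.6% and 14.6% that stood at 9.02% and 12.7% in overexpression. In 5 of the 8, ZBTB14, ZNF610, ZNF93, ZBTB7C and ZNF692, the wild-type score was above 0.260, the bound of the highest band; ZBTB7B lay just under it and ZSCAN29 and ZSCAN4 lower still.

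ZNF354A was the 1 zinc finger motif marked as higher, with a change of 0.570 in the authors' deposited table. It had the lowest score of the set in wild type, 0.125, rank 874 of 879, and 0.158 in overexpression. Its bound sites went from 2.65% to 3.70% of 37002. The next highest changes in the authors' deposited table were ZNF35 (0.474), ZBTB17 (0.294), ZNF766 (0.278), ZNF652 (0.270) and ZNF136 (0.265). All 6 had wild-type scores of 0.183 or less.

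The 98 motifs fall into 95 of the 406 deposited motif clusters, and 90 of them stand alone in a cluster. The Erg cluster of 13 motifs holds 3 of them, ZBTB7A, ZBTB11 and ZNF175, beside ETS factors such as ELF1 and GABPA. In it every motif had a change above 0 in the authors' deposited table, from 0.072 to 0.197 over the 10 other motifs with a median of 0.131. ZBTB11 (0.067) and ZBTB7A (0.069) had the smallest changes of that cluster in the authors' deposited table. Their mean scores were equal between genotypes to 3 decimals, 0.329 for ZBTB11 and 0.336 for ZBTB7A, with bound shares of 22.5% and 22.6% for ZBTB11 and 23.3% and 23.4% for ZBTB7A. ZNF175 had 0.129 in the authors' deposited table, close to ETV1 with 0.131, on bound shares of 9.43% and 10.6%. The ETS1 cluster of 12 motifs holds Zbtb2, which had the smallest change there, 0.029, against 0.048 to 0.228 for the other 11 in the authors' deposited table. By mean score, Zbtb2 and 4 of those 11 were lower in overexpression. In the cluster of PATZ1 and MAZ, ZNF148 had -0.037, PATZ1 -0.055 and MAZ -0.075 in the authors' deposited table. ZNF263 had -0.040 and its cluster partner SP5 -0.064 in the authors' deposited table. Motifs of a cluster have similar words and can match the same sites, so they are not separate observations.

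**Figure D4:**
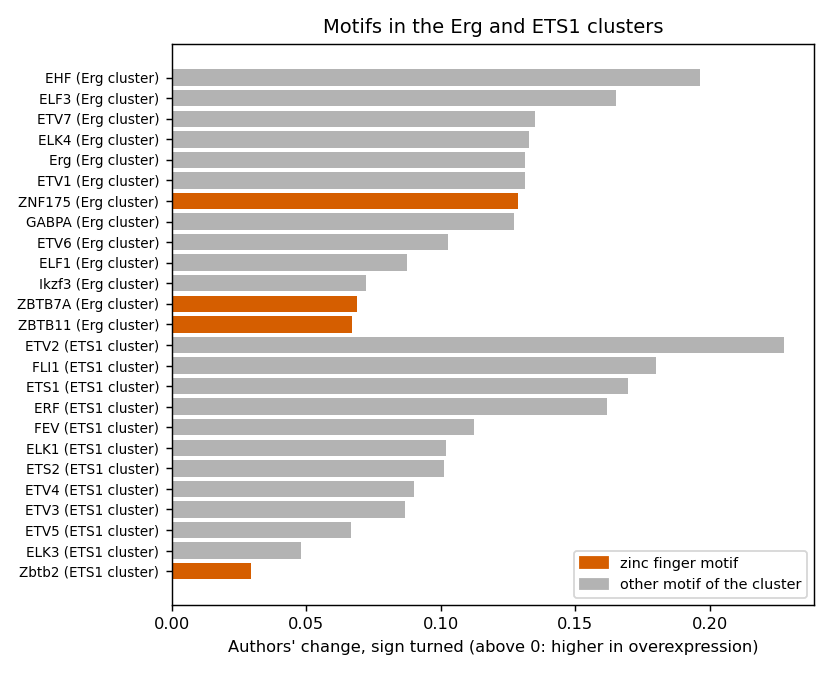
Change score of the authors' deposited table, sign turned, for each motif of the Erg and ETS1 clusters, with zinc finger motifs in orange and other motifs in grey; bars start at 0. ZBTB11, ZBTB7A and Zbtb2 sit at the low end of their clusters with 0.067, 0.069 and 0.029, and ZNF175 lies among the ETS motifs with 0.129.

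Whether the RNA of the factors changed was asked in the RNA libraries, which come from 3 separate mice of either genotype. These are bulk cultures, in which fewer cells of a type and less RNA per cell cannot be told apart. Of the 57 mouse genes, 55 reached a mean of 1 TPM, and limma on log2(TPM + 1) called none of them at a Benjamini-Hochberg adjusted p under 0.05. It called 0.0152% of all 13131 genes tested, all of them higher (0.0152%) and none lower (0%). The smallest adjusted p among the zinc finger genes was 0.146. At an unadjusted p under 0.05 there were 6 of 55 (10.9%), against 19.5% of all genes, 1 higher (background 10.6%) and 5 lower (background 8.94%). The genotypes did not overlap in any library for 13 genes (23.6%), against 27.2% of all genes, 6 of them higher and 7 lower in overexpression. The median log2 fold change was -0.01, with 30 of 55 genes below 0 (54.5%), where 51.7% of all genes were, and a range from -0.57 to 0.31. The count of 6 fell to 2 when wild-type replicate 1 was left out, and to 3 without wild-type replicate 3 or overexpression replicate 1 or 2. The median turned to 0.03 without overexpression replicate 2. Over all 406 tested genes named Zfp, Zbtb, Zscan or Zkscan, 0 were called and 34 had an unadjusted p under 0.05 (8.37%), 14 higher and 20 lower.

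Zfp354c (ENSMUSG00000044807.13, chr11:50811085-50827731 in GRCm38.p6), a KRAB gene, had the smallest p of the set. Its wild-type libraries read 10.7, 10.2 and 10.8 TPM and its overexpression libraries 13.4, 14.0 and 12.6 TPM, a log2 fold change of 0.31 with a standard error of 0.085 (limma adjusted p = 0.146). All 3 overexpression libraries lay above all wild-type libraries. The other 5 were below wild type on average. Zfp574 (ENSMUSG00000045252.11, chr7:25075674-25083492) had 18.3, 18.7 and 17.8 TPM in the wild-type and 15.3, 12.6 and 15.7 TPM in the overexpression libraries (log2 fold change -0.31, limma adjusted p = 0.170). Zfp523, the mouse gene of ZNF76, stood at 28.3, 26.6 and 28.3 TPM and then 23.1, 24.8 and 24.0 TPM (log2 fold change -0.20, limma adjusted p = 0.195). Neither gene's groups overlapped. Zfp423, a factor of adipocyte precursors, was low, with wild-type values of 3.89, 2.31 and 2.25 TPM and overexpression values of 1.71, 1.39 and 1.47 TPM (log2 fold change -0.57, limma adjusted p = 0.198). Its fold change was -0.38 without wild-type replicate 1 and -0.26 with a pseudocount of 5. Zfp335 stood at 11.4, 11.3 and 11.5 TPM and then 9.55, 9.78 and 10.0 TPM (log2 fold change -0.20, limma adjusted p = 0.234). Of the 16 tested genes with none of the 3 domains, 4 (Zfp574, Zfp523, Zfp423 and Zfp335) were thus at an unadjusted p under 0.05 and 13 had a fold change below 0, with a median of -0.12. That is 25% at that p and 81.2% below 0, against 19.5% (8.94% lower) and 51.7% of all genes. Of the 17 KRAB genes 2 were at that p, Zfp354c and Zfp809. None of the 13 BTB and 9 SCAN genes tested reached that p. Zbtb2 and Zbtb6, the next by p, had log2 fold changes of -0.22 and 0.16 (limma adjusted p = 0.315 and 0.358).

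Zfp809, which silences murine leukaemia virus and related endogenous retroviruses through Trim28, was the most abundant of the 57 genes by its mean. Wild-type libraries had 57.6, 51.6 and 58.3 TPM of it and overexpression libraries 44.8, 38.2 and 51.6 TPM, a log2 fold change of -0.32 (limma adjusted p = 0.203). The highest overexpression library and the lowest wild-type library were level, and the fold change was -0.21 without overexpression replicate 2. Zfp57 (44.3 and 40.0 TPM on average in wild type and overexpression), Zbtb18 (37.9 and 45.3), Zfp148 (40.7 and 38.8), Zbtb7b (36.8 and 38.6) and Zbtb7a (34.1 and 35.1) followed, and the groups of each overlapped. Next come the genes of motifs with high scores or large changes. Zbtb33 had a wild-type mean of 16.06 ± 0.13 TPM and an overexpression mean of 16.04 ± 0.82 TPM, and Zbtb14 had 11.0 ± 0.51 and 11.4 ± 0.64 TPM (SD, n = 3 each). Zfp354a, the gene of the motif with the highest change, was low, at 2.68 ± 0.26 and 3.16 ± 0.38 TPM (SD, n = 3 each), and its groups overlapped. Zbtb7c, Zscan29 and Zfp692, of motifs marked as lower, had wild-type means of 3.35, 9.74 and 7.14 TPM and overexpression means of 3.66, 9.96 and 6.76 TPM.

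For some motifs the factor's own gene was hardly expressed. The ZSCAN4 motif was marked as lower, yet the genes Zscan4a to Zscan4f were listed at 0 in all 6 libraries. Zfp42 (REX1, a pluripotency marker) averaged 0.017 and 0.034 TPM and Zbtb32 0.112 and 0.062 TPM in wild type and overexpression, too low to test, while their motifs had wild-type scores of 0.236 and 0.194. Over the 55 tested genes, the log2 fold change of RNA and the footprint change of the motif had a Pearson correlation of 0.052 and a Spearman correlation of -0.017, with the same sign in 27. Wild-type RNA level and wild-type score had 0.212 and 0.203. These are descriptions across genes. A motif is also read by related proteins, so its score is not a measure of 1 factor.

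Genes that these proteins are known to work with were taken as a list of 40, called corepressor genes here, all 40 tested. The list is wider than corepressors, since it also holds Hcfc1, Ctcf and Cul3. None was called by limma, and the smallest adjusted p was 0.131. At an unadjusted p under 0.05 there were 4 (10%), all lower in overexpression, against the 19.5% and 8.94% given above. Mta1, a subunit of the NuRD deacetylase complex, had 118, 117 and 116 TPM in the wild-type libraries and 93.7, 86.4 and 102 TPM in the others, a log2 fold change of -0.31 with a standard error of 0.073 (limma adjusted p = 0.131). Trim28, the corepressor of KRAB proteins, stood at 215, 223 and 213 TPM and then 190, 167 and 192 TPM, a log2 fold change of -0.25 with a standard error of 0.070 (limma adjusted p = 0.151). For both, every overexpression library lay below every wild-type library. Hcfc1, a cofactor of ZNF143, had -0.26 and overlapping groups, and Sin3a, a deacetylase scaffold, -0.22 (limma adjusted p = 0.216 and 0.256). Without overexpression replicate 2, Sin3a had -0.13. Ncor1, the second most abundant of the list, averaged 193 and 190 TPM, and Setdb1 14.5 and 14.9 TPM. Over the list, 17 genes had a fold change above 0 and 23 below, with a median of -0.02. The count of 4 was 2 without wild-type replicate 2 or overexpression replicate 1. Mta1 was called without overexpression replicate 3, when 6.30% of all genes were. With libraries weighted by their quality, a setting chosen after the data were seen, 5 zinc finger genes (1 higher and 4 lower) and 7 corepressor genes (2 higher and 5 lower) were called, along with 20.8% of all genes. Zfp354c was the 1 higher and Zfp335, Zfp523, Zfp574 and Zfp809 the 4 lower.

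**Figure D5:**
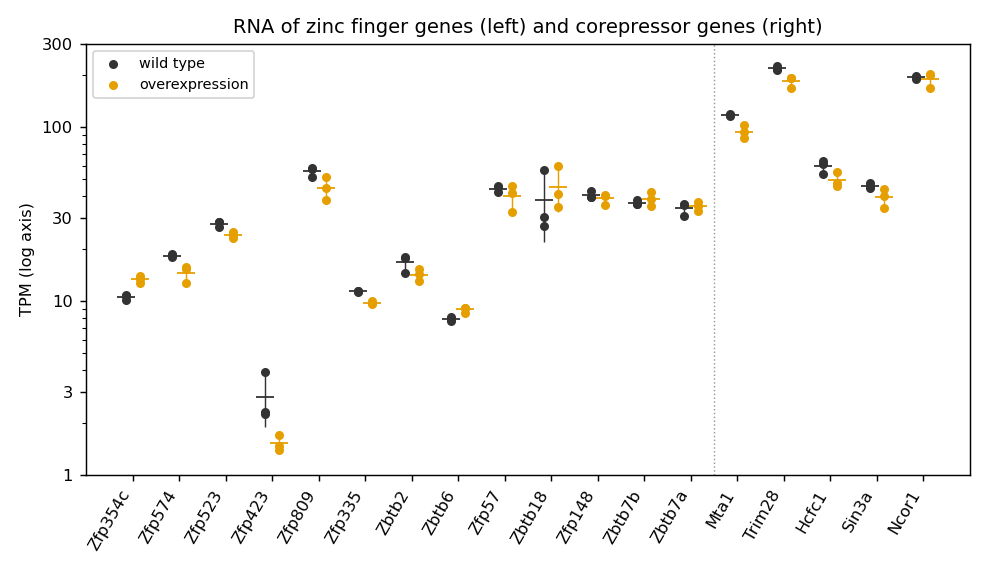
TPM per library (log axis) of zinc finger genes with the smallest p or the highest level (left of the dotted line) and of named corepressor genes (right), with bars for mean and SD of 3 mice per genotype. The groups separate for Zfp354c and Zbtb6 (higher in overexpression) and for Zfp574, Zfp523, Zfp423, Zfp335, Mta1, Trim28 and Sin3a (lower). They overlap for the other genes shown, Zbtb7a, Zbtb7b and Ncor1 among them. Of all genes tested 27.2% had groups that did not overlap.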

How the data were processed

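The labels give 10 libraries of cultured aortic smooth muscle cells, ATAC-seq of 2 and RNA of 3 mice per genotype, grouped by the genotype label. The members, domain classes, gene lists and tests were chosen with earlier results of these data known.

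Per the file headers, the authors deposited 1 table in the layout of TOBIAS BINDetect, with the number of sites per motif, a footprint score (signal) and a count of bound sites per genotype, a change score, a p-value and a mark on selected motifs. Libraries were pooled by genotype, per the file headers. Their processing notes name mm10 as the build. Not given in the sources used here are the footprint program's version, the peaks, the correction for transposase bias and the threshold of a bound site, and read depth is unknown. The authors also deposited TPM per gene and library, from kallisto per the labels, in which reads shared by similar genes are divided by estimate. TPM keep no record of read depth.

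The change score was turned in sign. Bound shares carry 95% Wilson intervals, which cover counting error only. RNA was tested on log2(TPM + 1) with lmFit and a trended eBayes of limma 3.58.1 (R 4.3.3), in the 13131 of 36144 genes whose mean reached 1 TPM, two-sided, with Benjamini-Hochberg adjustment over all of them and a threshold of 0.05. Fold changes on this scale understate changes of low genes, and the script was tested on simulated data. P-values measure the spread between these cultures of 3 mice each. Mouse genes of the motifs were matched by hand, in some cases to a gene of another number, such as ZNF76 to Zfp523 and ZNF8 to Zfp128. There were 7 human symbols with a mouse gene of the same number but not the same origin, and these were left unmatched. Gene identifiers are those of Ensembl, from a list of gene names that matched 35933 of 36144 genes by symbol. Gene positions came from RefSeq genes of GRCm38.p6. Python 3.11.15, numpy 2.4.6, pandas 2.3.3 and scipy 1.17.1 were used for the rest.

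Named motifs are the 6 highest and 6 lowest by wild-type score, the 6 largest changes each way, the 4 with most and fewest sites and the 4 highest and lowest bound shares. Every motif so marked, every motif of a cluster with 3 members, and every motif whose change and score difference differ in sign was also named. Named genes are those of named motifs, the 8 smallest p and the 6 most abundant, and from the corepressor list the 4 smallest p and the 2 most abundant. Alternatives covered the measure, centring and weighting of the footprint change, the summing of bound sites, the pseudocount, filter and scaling of TPM, a replicate block, each replicate left out and, added after seeing the data, library weights.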

Additional observations from a re-analysis of the deposited data

How the results depend on the processing

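The share of motifs lower in overexpression was 61.2% by the change score and 72.4% by the log2 ratio of mean scores or their plain difference. Centring the change on the median of all motifs subtracts 0.107 from every motif, which by construction lowers the median, here to -0.162, and raises the share, here to 83.7%, so it bears nothing on the direction. Summing sites over motifs gave bound shares of 12.7% in wild type and 11.7% in overexpression in place of medians of 10.8% and 10.5%. Taking 1 value per cluster, 95 values in place of 98, left the footprint summaries within their tolerance. Taking 1 value per factor name, or motifs with at least 1000 sites, kept the same 98 motifs. Those settings could not change any value and are no check.

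With libraries weighted by quality, 5 zinc finger and 7 corepressor genes were called and 11 of 40 corepressor genes had an unadjusted p under 0.05, in a setting that called 20.8% of all genes and put 37.5% at that p. Leaving out 1 library at a time gave 0 to 0 zinc finger genes called and 2 to 7 at an unadjusted p under 0.05, the 2 without wild-type replicate 1. That count was 3 without wild-type replicate 3 or without overexpression replicate 1 or 2. For corepressor genes the ranges were 0 to 1 called and 2 to 5 at that p, the 2 without wild-type replicate 2 or overexpression replicate 1. The median log2 fold change of the zinc finger genes turned to 0.03 without overexpression replicate 2. With the mouse number as a replicate block, 0 zinc finger and 0 corepressor genes were called and 5 and 4 had that p. After each gene's genotype mean was subtracted, the deviations left in same-numbered libraries correlated at -0.022, 0.058 and 0.018. The numbers name different mice, so the libraries were not taken as pairs. Pooled scores leave the spread between mice unknown for every footprint value.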
